A study of Mus musculus with 10 samples.

Results

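The G protein-coupled receptors considered here were 10 receptors through which gut hormones, islet hormones, nutrients and nerves are known to act on pancreatic islets: Glp1r, Gipr, Gcgr, Gpr119, Ffar3, Adra2a, Chrm3, Sstr3, Galr1 and Casr. They were listed by name and were 10 of the 47340 genes in the deposited expression table. The table holds mRNA levels from islets of 12-wk-old, chow-fed male mice, isolated and kept overnight in CMRL culture medium, in 5 libraries of floxed mice (FL) and 5 libraries of β cell FIT2 knockout mice (KO). The comparison of KO with FL asks how islet mRNA differs when Fitm2, the gene of the lipid droplet protein FIT2, is deleted in β cells. FL mice carried floxed FIT2 alleles (FIT2 fl/fl) and no Cre, although their genotype is given as wild type in the deposited labels. KO mice carried the same floxed alleles and the transgene of strain B6.Cg-Tg(Ins2-cre)25Mgn/J, in which the rat insulin promoter drives Cre recombinase. No library came from mice with Cre alone, so that deletion of FIT2 and presence of the Cre transgene cannot be told apart. Each library held the islets of 1 mouse.

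All of these receptors span the membrane with a bundle of helices and act through heterotrimeric G proteins. In β cells, receptors coupled to Gs raise cAMP and amplify glucose-stimulated insulin release, receptors coupled to Gq act through phospholipase C and intracellular calcium, and receptors coupled to Gi lower cAMP and restrain release. Glucagon-like peptide 1 and glucose-dependent insulinotropic polypeptide, the incretins, are the best known agonists of the first kind, and noradrenaline, somatostatin and galanin are known for the last.

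The unit throughout is FPKM, the number of sequenced fragments per exon length and library size, which allows levels to be compared between genes per length. Islets hold several cell types, and in such bulk samples fewer cells of a type and less RNA per cell cannot be told apart. Fitm2 itself was at 23.3 ± 9.86 FPKM in FL and 6.95 ± 2.36 in KO (mean ± SD, n = 5 each, adjusted p = 0.00228 from limma). The islet label was checked against β cell markers: Mafa, Pdx1, Nkx6-1, Slc2a2 and G6pc2 were detected in all libraries, with G6pc2 at 1188 ± 145 FPKM in FL, whereas Ins1, Ins2, Iapp and the α cell hormone gene Gcg were listed at 0 in all 10 libraries of the table. Islets are known to hold these hormone mRNAs, so that a gene listed at 0 is not read here as absent. The 7 β cell markers with values summed to 2273 to 2844 FPKM in the FL libraries and to 1511 to 2124 in the KO libraries, and 6 of these 7 were called lower in KO by the test described below, against 16.5% of all genes tested. The corresponding sums were 509.3 to 739.3 in FL and 363.9 to 500.3 in KO for α cell markers, 133.3 to 153.3 in FL and 161.4 to 205.7 in KO for endothelial markers, 108.7 to 120.2 and 134.2 to 179.4 for leukocyte markers, and 9.72 to 17.5 and 21.5 to 27.2 for fibroblast markers. Of 7 α cell markers tested, 2 were called lower and 5 were not called. The call of the α cell marker Irx1 was lost under 13 of 24 other settings of the test. The 4 δ cell markers summed to 4960 to 5852 FPKM in FL and 3993 to 5339 in KO, and 1 was called lower. The part of these markers in the receptor differences was not tested.

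Of the 10 receptors, 4 were lower in KO islets and none was called higher. Ffar3, a receptor for short-chain fatty acids, was at 50.9% of its FL mean and Gipr, the receptor of glucose-dependent insulinotropic polypeptide, at 56.1%. Gcgr, the glucagon receptor, was at 66.3% and Adra2a, the α2A-adrenergic receptor for noradrenaline and adrenaline, at 67.0%. Glp1r, Gpr119, Chrm3, Sstr3, Galr1 and Casr did not pass the test. All 10 had a mean of at least 1 FPKM, the minimum for testing. The test was limma on log2(FPKM + 1), with p-values adjusted by Benjamini and Hochberg's method over 13065 genes and a call at an adjusted p of at most 0.05. Of all genes tested, 25.5% were called, 16.5% lower in KO and 9.05% higher. Thus 4 of 10 receptors (40.0%) were called lower against 16.5% of all genes, and the median log2 fold change was -0.23 over the receptors and -0.06 over all genes tested. The receptors were chosen with earlier results of these data known, so that these shares are given as a description, with no test. The division of all calls into lower and higher depended on scaling: 64.5% of calls were lower as deposited and 51.1% to 53.3% after the libraries were rescaled in 4 other ways. The same 4 receptors were called lower under each rescaling. At an unadjusted p under 0.05, 7 receptors were lower and 0 were higher, against 24.9% and 12.9% of all genes tested. The exact Wilcoxon test called the same 4 lower and 0 higher, against 12.5% and 6.64% of all genes tested. No overlap between the groups, with KO lower, was found for 4 receptors and 12.5% of all genes tested.

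**Figure D1:**
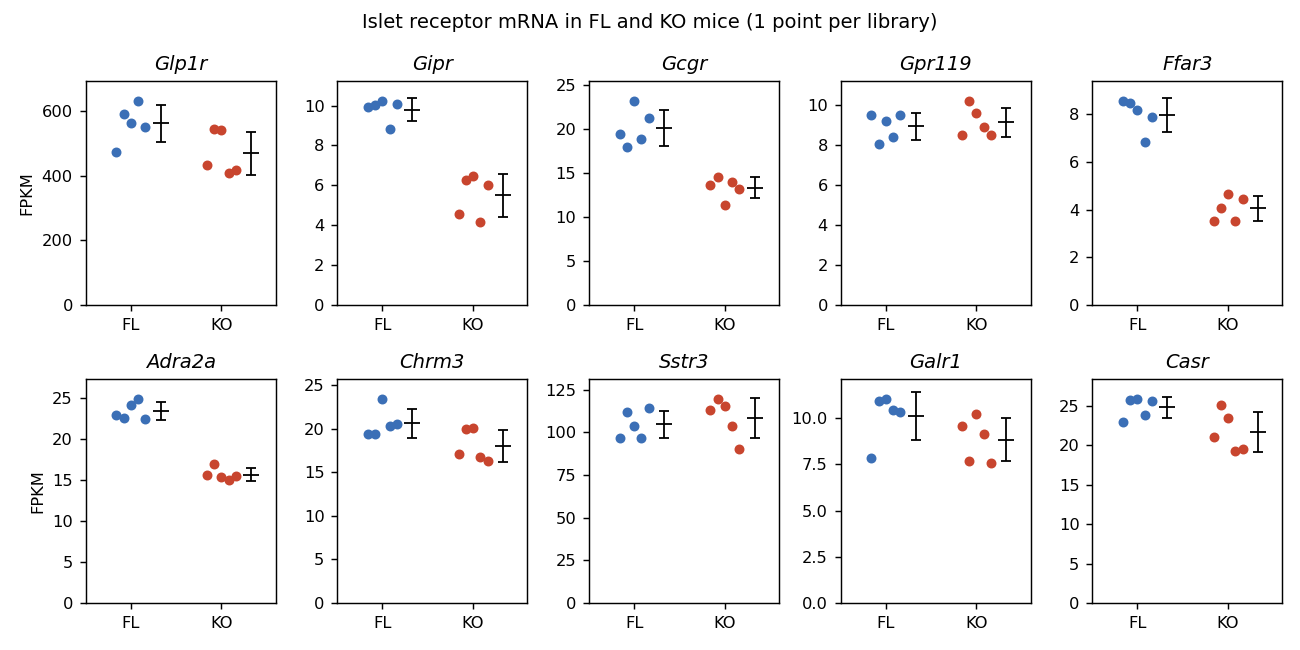
FPKM of each receptor (vertical axes, linear and starting at 0, scaled per receptor) in FL and KO islets, with 1 point per library in replicate order and a bar for the mean ± SD (n = 5). The FL and KO points are separate for Gipr, Gcgr, Ffar3 and Adra2a and overlap for the other 6 receptors, against 12.5% of all genes tested that were separate and lower in KO.

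The receptors of the class B family, which bind peptide hormones and couple to Gs, were Glp1r, Gipr and Gcgr. Glp1r, the receptor of glucagon-like peptide 1, was by far the most abundant of the 10. Its FL libraries were at 474.4, 589.6, 563.2, 629.1 and 549.1 FPKM and its KO libraries at 432.5, 544.0, 539.4, 408.8 and 417.6 FPKM. FL1 was the lowest FL library, and KO2 and KO3 were above it, whereas the other KO libraries lay below all of FL. The means were 561.1 ± 57.3 in FL and 468.5 ± 67.4 in KO (SD, n = 5), and the difference on the log2 scale was -0.27 (SE 0.10, 95% interval -0.49 to -0.04). Its adjusted p from limma was 0.0835 and its exact two-sided permutation p was 0.0476, so that Glp1r was not called. The adjusted p passed 0.05 without FL1 (0.0425), without KO2 (0.0397) or without KO3 (0.0471). In level, Glp1r mRNA in FL was above that of 99.2% of the genes tested.

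Gipr was measured at 9.91, 10.004, 10.2, 8.83 and 10.1 FPKM in FL. The KO libraries were at 4.56, 6.29, 6.49, 4.15 and 6.02 FPKM. All KO libraries were below all FL libraries, with KO1 and KO4 the lowest. The means were 9.80 ± 0.557 in FL and 5.50 ± 1.07 in KO (SD, n = 5), which on the log2 scale was a difference of -0.75 (SE 0.11, 95% interval -0.98 to -0.51) with an adjusted p from limma of 0.000563. The exact permutation p was 0.00794, the smallest that 5 against 5 libraries allow.

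Gcgr was at 19.5, 17.9, 23.2, 18.9 and 21.3 FPKM in FL. In KO it was at 13.7, 14.6, 11.4, 13.99 and 13.2 FPKM. The lowest FL library was thus above the highest KO library, and KO3 was the lowest of KO. From means of 20.2 ± 2.07 to 13.4 ± 1.21 FPKM (SD, n = 5), the log2 fold change was -0.56 (95% interval -0.73 to -0.38, SE 0.08, adjusted p = 0.000584 from limma, exact permutation p = 0.00794).

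The log2 ratio of Gipr to Glp1r within a library, with no pseudocount, was -5.83 ± 0.21 in FL and -6.42 ± 0.20 in KO (SD, n = 5), with overlap between the groups. The ratio of Gcgr to Glp1r was -4.80 ± 0.23 in FL and -5.12 ± 0.28 in KO, and that of Gipr to Gcgr -1.04 ± 0.13 and -1.30 ± 0.37, both with overlap. The ratio of Ffar3, described next, to Gpr119 was -0.16 ± 0.15 in FL and -1.18 ± 0.18 in KO, without overlap. These pairs were chosen with the values known, and the ratios are given as a description, with no test.

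The lipid receptors among the 10 were Gpr119, a Gs-coupled receptor for monoacylglycerols and N-acylethanolamines, and Ffar3, a Gi-coupled receptor for short-chain fatty acids. Gpr119 was at 9.46, 8.04, 9.17, 8.41 and 9.49 FPKM in FL. Its KO values were 8.51, 10.2, 9.58, 8.90 and 8.51 FPKM. The groups overlapped over most of their range, and KO2 was the highest of all 10 libraries. The log2 fold change was 0.03 (SE 0.06, 95% interval -0.11 to 0.17, adjusted p = 0.761 from limma, exact permutation p = 0.611), around means of 8.91 ± 0.653 in FL and 9.13 ± 0.724 in KO. Its sign turned without FL2 (-0.0015) or KO2 (-0.0045), values near 0.

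Ffar3 was at 8.53, 8.46, 8.16, 6.81 and 7.86 FPKM in FL. The KO libraries held 3.53, 4.09, 4.65, 3.54 and 4.46 FPKM. The highest KO library, KO3, was below FL4, the lowest of FL, and no library came between them. Means were 7.96 ± 0.696 in FL and 4.05 ± 0.515 in KO (SD, n = 5), and the log2 fold change of -0.83 (SE 0.08, 95% interval -1.01 to -0.65) was the largest of the 10 receptors. The adjusted p was 4.51e-05 from limma and the exact permutation p 0.00794.

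Adra2a, Sstr3 and Galr1 couple to Gi and are known to restrain insulin release in response to catecholamines, somatostatin and galanin. Adra2a was at 22.9, 22.5, 24.1, 24.8 and 22.3 FPKM in FL. In KO it was at 15.5, 16.9, 15.3, 14.9 and 15.5 FPKM. The values lay close together within each group and far apart between them, with KO2 the highest library of KO. The means were 23.3 ± 1.07 and 15.6 ± 0.753 FPKM (SD, n = 5), and Adra2a fell by 0.55 on the log2 scale (SE 0.05, 95% interval -0.65 to -0.44). Its adjusted p, 1.85e-05 from limma, was the smallest of the 10 receptors as deposited, and its exact permutation p was 0.00794.

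Sstr3, a somatostatin receptor of the β cell, was at 96.9, 111.6, 103.6, 96.9 and 114.2 FPKM in FL. In the KO libraries it was at 113.0, 119.4, 115.1, 103.4 and 89.9 FPKM. KO2 and KO3 were above all FL libraries and KO5 was below all of them. With means of 104.6 ± 8.09 and 108.2 ± 11.8 FPKM, the log2 fold change was 0.04 (SE 0.08, 95% interval -0.14 to 0.22, adjusted p = 0.735 from limma, exact permutation p = 0.587). Galr1, a receptor of the neuropeptide galanin, was at 7.83, 10.9, 11.0, 10.5 and 10.4 FPKM in FL. Its KO libraries were at 9.59, 7.67, 10.2, 9.17 and 7.57 FPKM. FL1 stood below the other FL libraries and within the range of KO. Its means were 10.1 ± 1.32 and 8.85 ± 1.18 FPKM, and the log2 fold change was -0.18 (SE 0.10, 95% interval -0.41 to 0.05, adjusted p = 0.244 from limma, exact permutation p = 0.119).

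Chrm3 and Casr couple to Gq. Chrm3, the muscarinic M3 receptor through which vagal acetylcholine acts on β cells, was at 19.4, 19.4, 23.4, 20.3 and 20.6 FPKM in FL. In KO it was at 17.1, 20.02, 20.1, 16.8 and 16.3 FPKM. KO2 and KO3 fell within the FL range and the other KO libraries below it. The log2 fold change was -0.19 (SE 0.07, 95% interval -0.35 to -0.02, adjusted p = 0.0946 from limma, exact permutation p = 0.0794), from 20.6 ± 1.64 to 18.1 ± 1.86 FPKM. Casr, the extracellular calcium-sensing receptor, was at 23.0, 25.7, 25.9, 23.9 and 25.6 FPKM in FL. The values in KO were 21.0, 25.2, 23.5, 19.2 and 19.5 FPKM. Again KO2 and KO3 lay in the FL range and the other KO libraries below it. From 24.8 ± 1.31 to 21.7 ± 2.59 FPKM, the log2 fold change was -0.19 (SE 0.08, 95% interval -0.36 to -0.02, adjusted p = 0.0888 from limma, exact permutation p = 0.0476), and without KO2 the adjusted p was 0.0239.

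**Figure D2:**
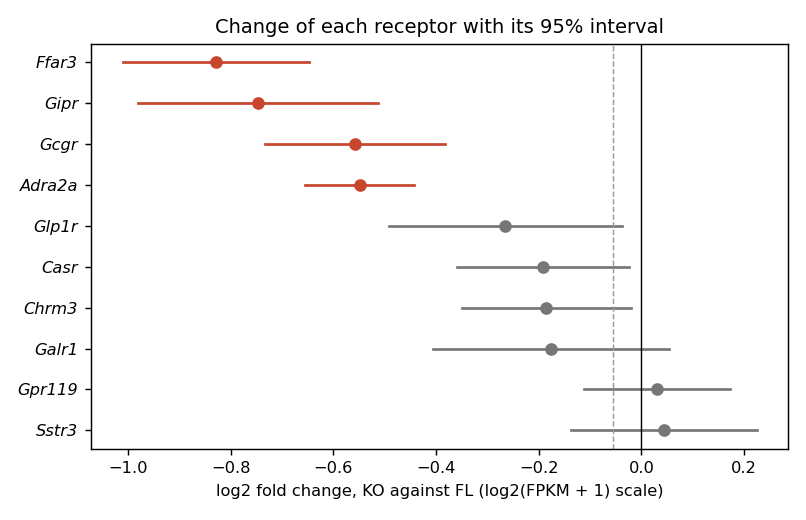
Log2 fold change of KO against FL on the log2(FPKM + 1) scale (horizontal axis) for each receptor (vertical axis), with its 95% interval from limma. Red marks an adjusted p of at most 0.05 and grey a larger one, the solid line is 0 and the dashed line the median of all genes tested (-0.06). The intervals of Ffar3, Gipr, Gcgr and Adra2a end at -0.38 or below.

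The precision behind these values was estimated from the spacing of low FPKM values, which in genes with a single transcript came within 0.1 of whole multiples of 1 read for 94.3% to 95.7% of values of up to 20 reads per library. The implied depth was 1 to 2.41 times that of FL1, the shallowest library, in FL and 1.51 to 2.05 times in KO. About 460 to 1110 reads then lay behind Gpr119 and 513 to 1635 behind Galr1, with a counting error of 4.7% and 4.4% in the shallowest case. Ffar3 rested on the fewest of the 5 receptors for which reads were estimated, about 139 reads in KO1 if its shorter transcript of 1234 nt is assumed and 192 with the longer of 1625 nt, a counting error of at most 8.5%.

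Levels of the 10 receptors spanned 70.5-fold in FL. In FL the order was Glp1r, Sstr3, Casr, Adra2a, Chrm3, Gcgr, Galr1, Gipr, Gpr119 and Ffar3. The ranges of neighbours were separate only below Glp1r, below Sstr3 and below Gcgr. In KO the order was Glp1r, Sstr3, Casr, Chrm3, Adra2a, Gcgr, Gpr119, Galr1, Gipr and Ffar3. There the ranges of Adra2a and Gcgr, of Gcgr and Gpr119, and of Galr1 and Gipr were separate as well, while Galr1 still overlapped with Gpr119. Gipr, which in FL lay among Galr1 and Gpr119, was thus below both in KO.

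The highest and lowest KO libraries were counted over the receptors and over all genes tested. The highest KO library was KO2 or KO3 for 10 of 10 receptors, as it was for 62.2% of all genes tested. KO2 and KO3 were the highest pair for 6 of 10, a count for which the share of all genes was not computed. KO4 or KO5 was the lowest KO library for 7 of 10 receptors and for 56.5% of all genes tested. Summed β cell markers were also highest there, with 2061 and 2124 FPKM in KO2 and KO3 against 1689, 1511 and 1571 in KO1, KO4 and KO5. The 12 markers of acinar cells, the enzyme-producing exocrine cells around islets, summed to 3258 and 3386 FPKM in KO2 and KO3, to 5879 in KO1 and to 9803 and 24060 in KO4 and KO5, against 4867 to 13030 in FL. The part of acinar RNA in the receptor values was not tested. Without KO5 the same 4 receptors were called, all lower. That fit kept KO4 and all FL libraries and is not a test of acinar RNA.

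**Figure D3:**
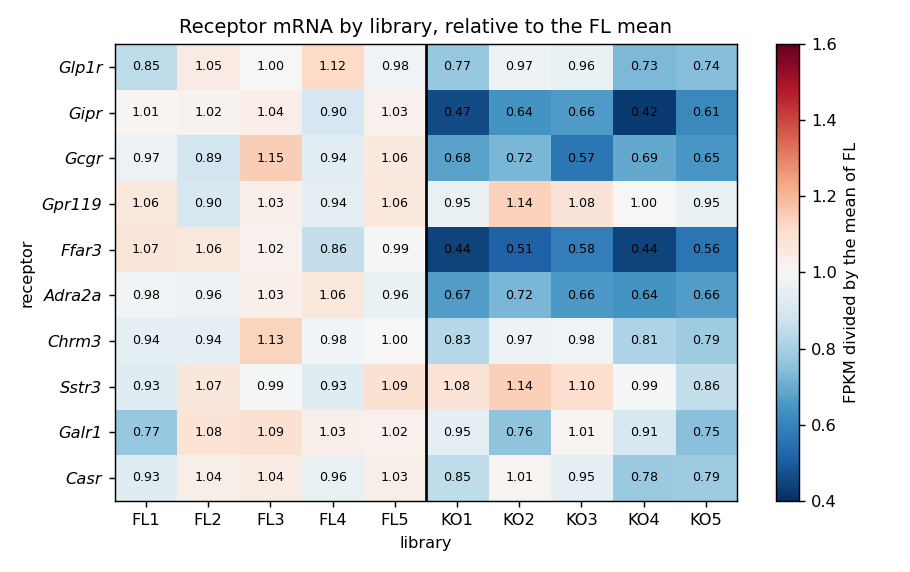
FPKM of each receptor (rows) in each library (columns) divided by the receptor's mean over the 5 FL libraries, as number and colour (blue below 1, red above 1). Ffar3 lies at 0.44 to 0.58 and Gipr at 0.42 to 0.66 in the KO libraries, whereas Sstr3 lies at 0.86 to 1.14.

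The receptor genes were placed on GRCm38 with GENCODE release M21. Gipr was at chr7:19156061-19166127 on the minus strand, Gcgr at chr11:120530699-120538986 on the plus strand, and Adra2a at chr19:54044151-54048982 on the plus strand. Ffar3 was at chr7:30854330-30856178 on the minus strand, with its coding sequence in 1 exon. The coding sequence was also in 1 exon in Adra2a, Gpr119, Chrm3 and Sstr3. Other annotated genes overlapped Glp1r, Gcgr, Chrm3 and Casr. The overlapping genes of Glp1r and Gcgr lie on the opposite strand, that of Casr on the same strand, and those of Chrm3 on both. The library kit was stranded, but whether reads were counted by strand was not given in the sources used here, and how reads in the overlaps were assigned was not tested.

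Because 4 receptors were lower together, the 250 bases before the RefSeq start (GRCm38.p6) of 3 of them, Ffar3, Adra2a and Gcgr, are shown 5′ to 3′ on the gene's strand, and Gipr is not shown. Entries were matched by symbol for 8 of the 10 receptors. Capitals mark matches, on either strand, to TGACG, the core of the cAMP response element, to GGGCGG, the GC box, and to TATAAA, the TATA box. The windows are chr7:30856179-30856428 (minus strand) for Ffar3, chr19:54045009-54045258 (plus strand) for Adra2a and chr11:120530477-120530726 (plus strand) for Gcgr.
Ffar3: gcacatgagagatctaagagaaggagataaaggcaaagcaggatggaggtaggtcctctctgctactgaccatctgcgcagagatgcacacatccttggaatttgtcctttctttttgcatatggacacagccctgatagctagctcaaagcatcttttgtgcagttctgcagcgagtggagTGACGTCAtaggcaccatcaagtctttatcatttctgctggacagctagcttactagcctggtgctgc
Adra2a: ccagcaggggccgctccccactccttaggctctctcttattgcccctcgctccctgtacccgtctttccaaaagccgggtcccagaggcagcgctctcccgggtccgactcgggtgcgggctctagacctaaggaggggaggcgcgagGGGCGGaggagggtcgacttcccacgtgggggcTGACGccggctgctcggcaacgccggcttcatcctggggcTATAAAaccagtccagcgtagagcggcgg
Gcgr: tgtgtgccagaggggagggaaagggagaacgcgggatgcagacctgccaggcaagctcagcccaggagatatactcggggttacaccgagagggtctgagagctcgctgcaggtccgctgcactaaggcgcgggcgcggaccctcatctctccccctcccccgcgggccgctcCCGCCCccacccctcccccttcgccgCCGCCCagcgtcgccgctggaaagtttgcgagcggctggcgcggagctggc
In Ffar3 the capitals form the full palindrome TGACGTCA, made of overlapping core elements on both strands, the first base of which lay 68 bases before the start. The palindrome occurred in 1.55% and the core element in 17.8% of the 32851 windows of the same length. The Adra2a window held the core element 69, the GC box 102 and the TATA box 29 bases before the start. Its RefSeq start lies inside the GENCODE gene, as does the 3′ end of the Gcgr window. The Gcgr window held the GC box on the opposite strand 77 and 51 bases before the start, and no core element. The GC box occurred in 32.7% and the TATA box in 12.4% of all windows. The windows differed in base composition, with 48.0% G and C in Ffar3, 67.6% in Adra2a and 70.4% in Gcgr against a median of 52.4%. Of the letters searched, none were in all 3 of these windows. The core element was also found before Gpr119 and Sstr3, and the GC box before Glp1r, receptors that were not called.

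The 4 free fatty acid receptors did not all change in the same direction. Ffar1, the Gq-coupled receptor of long-chain fatty acids on β cells, was at 59.2, 61.6, 63.0, 65.7 and 59.4 FPKM in FL and at 27.9, 28.9, 36.3, 26.6 and 28.9 in KO, with no overlap. The change was -1.04 on the log2 scale with an adjusted p from limma of 4.49e-06 (SE 0.08). The log2 ratio of Ffar3 to Ffar1 within a library was -2.96 ± 0.18 in FL and -2.88 ± 0.12 in KO, given as a description. Ffar1 is the next annotated gene upstream of Ffar3 on the same strand, at chr7:30857390-30861564, with 1211 nt between the annotated genes. Ffar2, a further receptor for short-chain fatty acids, lies 30554 nt away on the other side. Ffar2 rose, from 14.2 to 21.1 FPKM over the FL libraries to 22.1 to 26.1 over the KO libraries (log2 fold change 0.41, SE 0.10, adjusted p = 0.0122 from limma). Ffar4, a receptor for long-chain fatty acids, was at 11.7 ± 0.676 and 11.8 ± 0.831 FPKM (log2 fold change 0.02, SE 0.06, adjusted p = 0.873). Among the 4 free fatty acid receptors, then, 2 were lower, 1 was higher and 1 was not called, against 16.5% lower and 9.05% higher of all genes tested.

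Of the other somatostatin receptors, Sstr2 was the only one that passed the filter. It was at 1.95, 2.01, 1.27, 1.40 and 1.39 FPKM in FL and at 4.10, 4.52, 6.14, 4.69 and 5.56 in KO, and the log2 fold change was 1.20 with an adjusted p from limma of 3.71e-05 (SE 0.12). All KO libraries were above all FL libraries, yet Sstr2 remained far below Sstr3 in level. Sstr1, Sstr4 and Sstr5 had means under 1 FPKM in both groups, with Sstr5 at 0.160 to 0.322 in FL and 0.0174 to 0.0942 in KO. Sst, the gene of somatostatin itself, fell from 4976 ± 318 to 4091 ± 537 FPKM (log2 fold change -0.29, adjusted p = 0.0303 from limma), with overlapping groups. That call was lost under 13 of 24 other settings, among them each rescaling, where the adjusted p reached 0.874. Adra2b and Adra2c were listed at 0 or at values up to 0.0169 FPKM, and Adra2a was the only α2-adrenergic receptor that passed the filter. Beside Chrm3, Chrm4 was at 2.96 ± 0.367 and 3.30 ± 0.462 FPKM (adjusted p = 0.389), Chrm1 and Chrm2 were under 0.22 FPKM in all libraries, and Chrm5 was listed at 0. Galr2 was under 0.06 FPKM in all libraries.

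**Figure D4:**
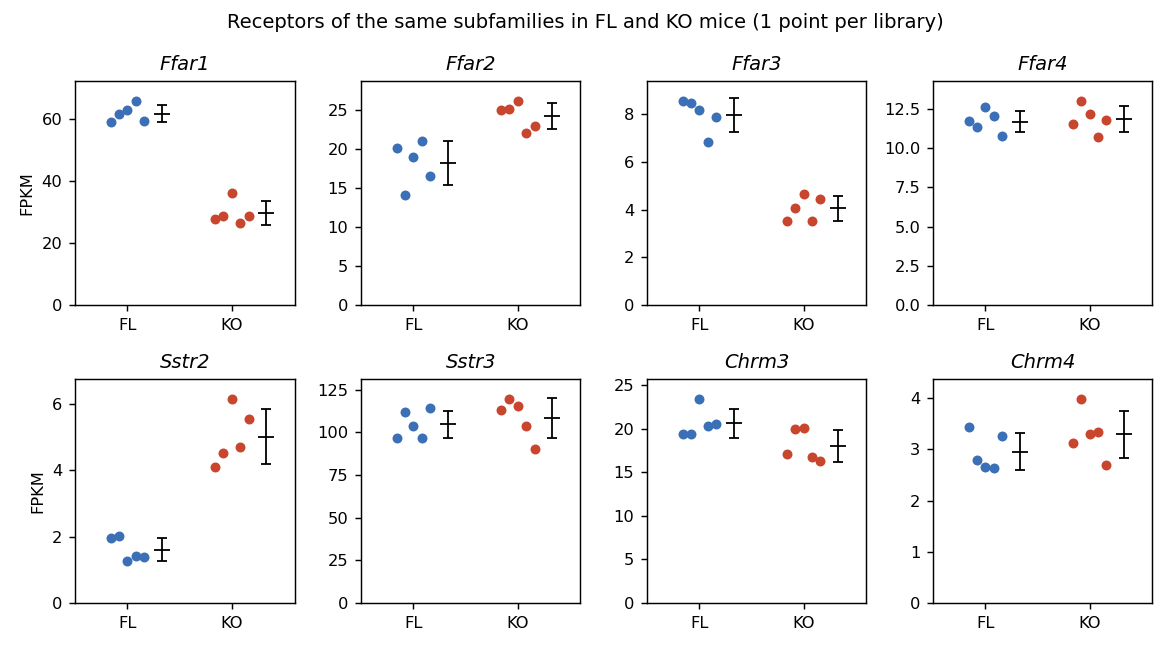
FPKM (vertical axes, linear and starting at 0, scaled per gene) of the free fatty acid receptors, of 2 somatostatin and of 2 muscarinic receptors in FL and KO islets, with 1 point per library and a bar for the mean ± SD (n = 5). Ffar1 and Ffar3 are lower in all KO libraries, Ffar2 and Sstr2 higher, and Ffar4, Sstr3, Chrm3 and Chrm4 overlap.

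Of 144 further receptors of this superfamily, listed by coupling, 69 were tested, of which 17 were lower, 9 were higher and 43 did not pass the test, with a median log2 fold change of -0.03. These were 24.6% lower and 13.04% higher, against 16.5% and 9.05% of all genes tested. Among the 5 Gs-coupled receptors tested, 2 were lower (40.0% called, against 25.5% of all genes): Vipr1, from 35.9 ± 9.36 to 14.5 ± 3.03 FPKM, and Vipr2, from 7.34 ± 1.25 to 4.33 ± 0.901 FPKM. Both bind vasoactive intestinal peptide and PACAP. Among 14 Gi-coupled receptors, 4 were lower and 3 higher (7 of 14 called). The lower ones included Adora1, the adenosine A1 receptor (20.7 ± 1.35 to 10.6 ± 0.817 FPKM), Cnr1, the CB1 cannabinoid receptor (4.10 ± 0.520 to 2.16 ± 0.432), and Lpar1, a lysophosphatidic acid receptor (2.94 ± 0.622 to 1.498 ± 0.407). With Sstr2, P2ry14 (1.79 ± 0.505 to 3.65 ± 0.439) and S1pr1, a receptor of sphingosine 1-phosphate (10.3 ± 1.42 to 12.7 ± 0.749), were higher, the last with a call lost under 8 of 24 other settings. Among 16 Gq-coupled receptors, 3 were lower and 2 higher (31.2% called). Beside Ffar1 the lower ones were P2ry1, a receptor for ADP (17.2 ± 1.95 to 10.4 ± 0.759), and Gpr142, a receptor for tryptophan (9.93 ± 0.874 to 7.85 ± 0.884, with overlapping groups), and beside Ffar2 the oxytocin receptor Oxtr was higher (5.97 ± 1.09 to 8.84 ± 1.31). Of 34 orphan, adhesion and frizzled receptors tested, 8 were lower and 4 higher (35.3% called).

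The genes downstream of the receptors changed in both directions. Of 10 G protein α subunits tested, 3 were lower and 1 higher (40.0% called, against 25.5% of all genes tested, 16.5% lower and 9.05% higher), and of 11 β and γ subunits 3 were lower and 1 higher (36.4% called). With rescaling to the same sum (TPM), the α subunits Gnai2 and Gnaz lost their lower calls. The γ subunits Gng10 and Gng5 lost theirs with upper-quartile rescaling and with quantile normalization. Gnas, which encodes the Gs subunit, was at 1108 ± 55.8 and 1059 ± 61.3 FPKM (log2 fold change -0.07, adjusted p = 0.419 from limma), and Gnaq at 36.8 ± 2.61 and 35.2 ± 2.21 (adjusted p = 0.466). Gnai2, a Gi subunit, fell from 1229 ± 157 to 966 ± 94.9, a call lost under 8 of 24 other settings, and Gna11 of the Gq class from 67.5 ± 2.23 to 59.4 ± 2.36. Of 34 genes of cAMP production, breakdown and action, 12 were lower and 4 higher (47.1% called). Pde7b, a cAMP phosphodiesterase, had the largest rise there, from 2.35 ± 0.156 to 10.8 ± 0.990 FPKM (log2 fold change 1.82, SE 0.07, adjusted p = 1.99e-08 from limma), and Pde8b, of the same enzyme class, rose from 1.99 ± 0.493 to 3.91 ± 0.473. The phosphodiesterase genes Pde1c (6.57 ± 1.51 to 3.44 ± 1.35, with overlapping groups) and Pde4b (26.7 ± 2.17 to 18.0 ± 1.61) fell, as did Crtc3, a coactivator of CREB (21.6 ± 2.34 to 14.9 ± 0.329). Pde3b, the phosphodiesterase gene with the highest FL mean of the list and named after its values were seen, fell from 66.4 ± 6.57 to 49.0 ± 5.18 (adjusted p = 0.0047 from limma). Called phosphodiesterase genes were thus 3 lower and 2 higher. Among the other cAMP genes, Adcy6, Adcy9 and Prkaca lost their lower calls under each rescaling, and Creb3l2 with TPM. The higher calls of Adcy4 and Prkar2b were lost under 10 of 23 and 11 of 24 other settings. Rapgef4, the cAMP sensor Epac2 of β cells, was at 69.9 ± 6.58 and 69.2 ± 7.76 (adjusted p = 0.911).

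Of 23 genes of the phospholipase C pathway, 8 were lower and 3 higher (47.8% called, against 25.5% of all genes tested, 16.5% lower and 9.05% higher). The largest falls were in Trpm5, a calcium-activated cation channel (243 ± 20.6 to 80.1 ± 20.6 FPKM), and in the inositol trisphosphate receptor genes Itpr2 (10.3 ± 1.24 to 4.83 ± 0.966) and Itpr3 (24.4 ± 1.25 to 13.8 ± 1.16), which release calcium from the endoplasmic reticulum. Prkd1, Dgkg and Dgka were higher. Among 24 receptor kinases, arrestins, RGS proteins and RAMPs, 3 were lower and 4 higher (29.2% called). Grk5, a receptor kinase (26.7 ± 1.34 to 16.2 ± 1.35), and the regulators of G protein signalling Rgs16 (10.1 ± 0.765 to 5.29 ± 0.267) and Rgs3 (28.5 ± 1.63 to 22.1 ± 2.60) fell, while Rgs2 rose (17.8 to 21.8 in FL and 27.4 to 32.8 in KO). The β-arrestin genes Arrb1 and Arrb2 were not called (adjusted p = 0.922 and 0.155). Of 10 genes of islet ligands tested, 2 were lower and 1 higher (30.0% called): Ucn3, the β cell peptide urocortin 3, fell from 315 ± 33.1 to 209 ± 34.4 FPKM, the second lower gene was Sst, given above, and Penk, the precursor of enkephalins, was at 0.217 ± 0.0378 in FL and 5.35 ± 1.23 in KO. Penk was under 1 FPKM in FL and passed the filter only through KO, so that its entry into the test depended on its KO level.

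**Figure D5:**
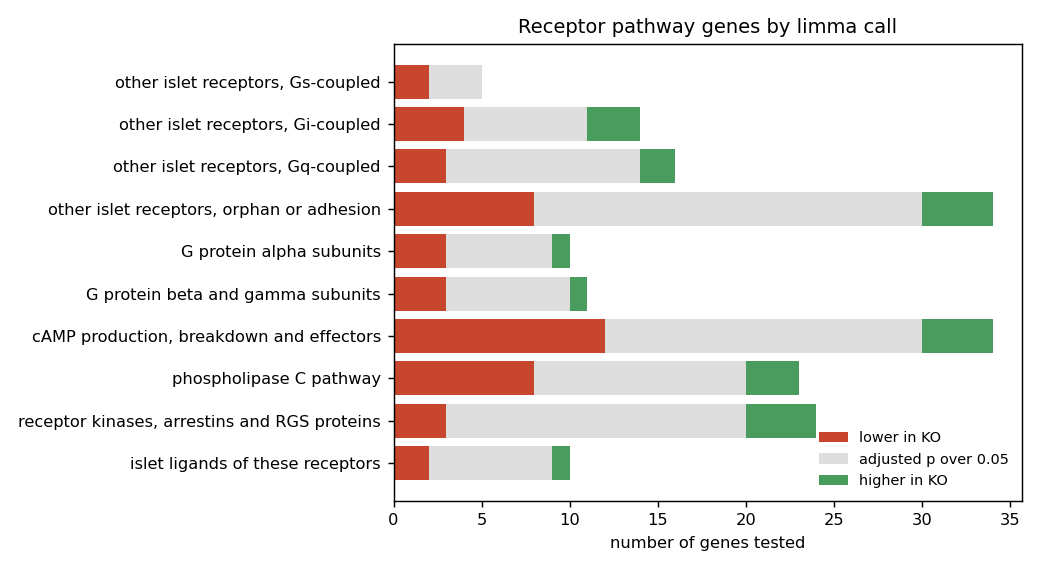
Number of genes tested (horizontal axis) in each list of receptor pathway genes, divided into those called lower in KO (red), not called (grey) and called higher in KO (green). The cAMP list holds 12 lower and 4 higher genes of 34, and the phospholipase C list 8 and 3 of 23, and 25.5% of all genes tested were called. Calls are from the data as deposited, and some were lost under other settings.

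Among all genes tested, those with a pattern most like a receptor were sought for the 2 called receptors with the smallest adjusted p, by Pearson's r of log2(FPKM + 1) over the 10 libraries. For Adra2a these were Map2k1 (r = 0.994), Arpin (r = 0.987) and Zswim1 (r = 0.987), and 639 genes had an r over 0.9. For Ffar3 they were Chrac1 (r = 0.987), Hspa12a (r = 0.985) and Pvrl1 (r = 0.984), and 397 genes had an r over 0.9. These values were computed across both groups together, and no r within a group was computed.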

How the data were processed

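The authors sequenced polyA RNA of 10 islet libraries (stranded kit, single-end reads) and deposited 1 table of FPKM. The submitters' processing notes name STAR 2.5.2a, Cuffnorm 2.2.1 and the builds mm10 and GRCm38. The 10 columns were matched to the samples by title, and no 2 libraries were duplicates. KO was compared with FL by limma 3.58.1 in R 4.3.3 (lmFit, eBayes with trend) on log2(FPKM + 1), without covariates, over genes whose mean reached 1 FPKM in either group, at a Benjamini-Hochberg adjusted p of at most 0.05. A fold change on this scale understates that of low genes. Single receptors were also compared by exact two-sided permutation of the mean FPKM. Summaries used Python 3.11.15, pandas 2.3.3, numpy 2.4.6, scipy 1.17.1 and matplotlib 3.10.9. The fit was tested on simulated data.

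The p-values measure the spread between these libraries, 1 per mouse. FPKM hold no read counts; depth was estimated from the spacing of low values, with an assumed fragment length of 200 nt. The reads, and hence multi-mapping, were not processed again.

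The receptors and gene lists were chosen with earlier results of these data known. From each pathway list, the genes named are mostly among the called genes with the 3 largest rises and 3 largest falls. Adgrl1 and the frizzled receptors other than Fzd4 are named outside this rule, with values known. So are some genes named for calls lost under other settings. Subfamily members, and genes of a central role in a pathway (Gnas, Gnaq, Rapgef4, Arrb1, Arrb2, Pde3b), are named with their levels, the latter chosen with values known. Alternatives tried were pseudocounts of 0.1 and 0.01, no filter or 5 FPKM, rescaling (TPM, quantiles, upper quartile or median ratio), eBayes without trend or robust, sample weights, other thresholds, a replicate block, an exact Wilcoxon test and each library left out. 1 was added after seeing the data: genes listed at 0 in a whole group left out.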

Additional observations from a re-analysis of the deposited data

Results flagged for a closer look

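A library that stood apart from the other 4 of its group was found 8 times in 116 groups of 5, by Dixon's test at the 95% level, where chance gives about 1 in 20 groups, or 5.8. Of the receptors, Gipr was lower in FL4 (8.83 FPKM, others 9.91 to 10.2) and Galr1 lower in FL1 (7.83, others 10.4 to 11.0). Among the other named genes, Ffar1 was high in KO3 (36.3, others 26.6 to 28.9), Fzd4, a Wnt receptor, was high in FL2 (3.66, others 2.91 to 3.03), and Rgs5 was low in KO2 (6.65, others 9.98 to 10.3). The G protein γ subunits Gng12 (314, others 265 to 275) and Gng10 (41.1, others 31.1 to 33.6) were high in FL4, and Gng5 was low in FL2 (71.1, others 81.8 to 85.4).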

How the results depend on the processing

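Ffar3, Gipr, Gcgr and Adra2a were called lower in KO under all 27 alternatives, except that Gcgr and Adra2a missed a required change of 1.5-fold on the log2(FPKM + 1) scale, which left 2 receptors and 639 of all genes called. The pseudocount decides this for Gcgr, at 66.3% of its FL mean in FPKM (log2 fold change -0.56, and -0.588 with a pseudocount of 0.1). Sample weights called 7 receptors, and so did an adjusted p of at most 0.1, with Glp1r, Chrm3 and Casr added in both. Calls over all genes rose as well, from 3333 to 4273 and 4414. At an adjusted p of at most 0.01, 1666 of all genes were called. With each library left out in turn, 4 to 6 receptors and 2545 to 3427 of all genes were called, with both highest without KO2. The sign of the log2 fold change of Gpr119 turned with sample weights (-0.0088), and with libraries left out it ranged from -0.0045 to 0.0534, around 0.

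With the replicate block, the same 4 receptors and 2368 of all genes were called. FL and KO libraries of the same number did not deviate together (r of -0.102 to 0.00305 across genes). No FL library correlated best with the KO library of its own number, and the numbers were not taken as pairs. Of 71 other called genes of the pathway lists, 46 kept their call under all settings that tested them with the threshold as it was (at most 24), and none reversed. Of the 25 that lost their call under some setting, the cAMP genes Adcy9 and Adcy6 did so under 19 and 15 of 24. The adhesion receptor gene Adgrg1 lost its call under 17 of 24. Gpr142 and Pde1c lost theirs only in the exact Wilcoxon test, and Gna11 and Dgkg only with the replicate block. The cause of these differences between settings was not tested. Of the 5 receptors with estimated reads, Ffar3 had the fewest.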

Other observations

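Among orphan and adhesion receptors, outside the groups described above, the latrophilin Adgrl3 fell from 9.97 ± 0.641 to 3.91 ± 1.46 FPKM and Adgrb3 from 3.74 ± 0.410 to 1.34 ± 0.176 (log2 fold changes -1.21 and -1.02, n = 5, adjusted p = 0.000521 and 1.17e-05 from limma), and Gpr85 from 10.8 ± 0.957 to 7.74 ± 0.757. Of the further latrophilins, Adgrl1 fell from 19.4 ± 1.19 to 14.3 ± 1.74, and Adgrl2 rose from 2.996 ± 0.245 to 4.09 ± 0.603. Among frizzled receptors, Fzd4 rose from 3.11 ± 0.310 to 5.19 ± 0.193, whereas Fzd7 (7.01 ± 0.721 to 4.96 ± 0.605) and Fzd8 (5.12 ± 0.289 to 4.14 ± 0.22) fell. Fzd1, Fzd3, Fzd5 and Fzd6 were tested and not called (adjusted p = 0.723, 0.481, 0.462 and 0.277 from limma). Of all genes tested, 16.5% were called lower and 9.05% higher. Gng2 rose from 15.0 ± 1.92 to 22.6 ± 1.58 FPKM, while Gng12 fell from 278 ± 20.6 to 199 ± 26.2. Markers of endothelial cells and fibroblasts were higher in KO for 3 of 6 and 4 of 4 genes tested, against 9.05% of all genes tested (calls lost under 12 of 23 other settings for Col1a1, 10 of 24 for Plvap and 1 each for Pecam1 and Col1a2), and their part in these values was not tested.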
